A study of Mus musculus with 8 samples.

Results

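WFS1 ChIP-seq peaks that lie away from promoters and carry the E-box sequence CAGCTG were examined in proliferating wildtype C2C12 cells, an established mouse myoblast line. The peak lists of 2 libraries were joined, made after 30 and after 36 sonication cycles. A peak belonged to the set if it lay on an autosome, if its centre was 1 to 100 kb from the nearest 5' end of a protein-coding gene, and if its central 200 bp held CAGCTG but neither TGACTCA nor TGAGTCA, the consensus of AP-1. These E-box peaks numbered 2219 of the 22292 combined peaks and made up 15.3% (95% Wilson interval 14.8 to 15.9) of the 14472 distal peaks of the same distance band. The rule used position and sequence only, so how often these peaks were called in each list could be measured separately. So could their place within the distance band and the presence of sequences other than CAGCTG and the AP-1 consensus.

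Both libraries came from 1 immunoprecipitation with an antibody against endogenous WFS1, after double crosslinking with disuccinimidyl glutarate (DSG) and formaldehyde. The 36-cycle library was made from the same material after 6 more cycles. Each condition therefore has 1 library, the lists are not replicates, and no test between them was possible. The other 6 of the 8 libraries, namely the inputs and those from WFS1 knockout cells expressing FLAG-tagged WFS1, were not used here. The lists give only the position of each peak, so peak heights and sequencing depths are unknown, and all intervals below cover counting error over peaks or genomic windows. Neighbouring peaks are not independent, which makes these intervals too narrow by an unknown amount.

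WFS1 is a transmembrane protein of the endoplasmic reticulum that also resides in the inner nuclear membrane. MyoD belongs to the basic helix-loop-helix (bHLH) family, whose members bind DNA as dimers and recognise E-boxes, sequences of the form CANNTG. In muscle cells MyoD pairs with E proteins such as the product of Tcf12, and this pair favours CAGCTG and CAGGTG. The first of these reads the same on both strands, so its copies differ only in the bases beside them. Id proteins withdraw E proteins from DNA, while bHLH repressors of the Hes, Hey and musculin type and zinc finger repressors of the Snail and ZEB families act at E-boxes against myogenic factors. The presence of a sequence is a description of the letters under a peak and does not show which protein was bound.

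The central 200 bp of 5 E-box peaks are shown because they lie beside myogenic genes or show a single, a paired or a repeated E-box. All are the plus strand of GRCm38 as given by RefSeq, with CAGCTG in capitals. Both distal WFS1 peaks whose nearest gene was Myod1 met the rule, at 23.3 kb (chr7:46353048-46353380) and 34.9 kb (chr7:46341318-46341903) upstream of its 5' end. Heyl, a Notch target that encodes a bHLH repressor, had a peak 5.07 kb upstream (chr4:123228155-123228809) with 4 sites. Mymx, which encodes the fusion protein myomixer, had a peak 14.3 kb upstream (chr17:45616144-45616615) with 2 sites. The peak in an intron of Cnn2, encoding the actin-binding protein calponin 2 (chr10:79989954-79990451), held 2 sites with different flanks.
Myod1, 23.3 kb upstream: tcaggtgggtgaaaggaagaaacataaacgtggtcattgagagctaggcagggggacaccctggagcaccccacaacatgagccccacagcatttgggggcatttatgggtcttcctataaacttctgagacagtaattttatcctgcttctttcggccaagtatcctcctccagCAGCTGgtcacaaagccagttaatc
Myod1, 34.9 kb upstream: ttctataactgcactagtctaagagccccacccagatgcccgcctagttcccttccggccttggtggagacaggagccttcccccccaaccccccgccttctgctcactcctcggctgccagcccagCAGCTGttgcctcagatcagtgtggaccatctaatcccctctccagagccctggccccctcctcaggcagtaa
Heyl, 5.07 kb upstream: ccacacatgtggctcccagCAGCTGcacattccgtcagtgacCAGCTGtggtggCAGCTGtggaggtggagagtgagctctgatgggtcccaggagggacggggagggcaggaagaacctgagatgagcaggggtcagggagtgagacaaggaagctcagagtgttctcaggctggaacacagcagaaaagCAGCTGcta
Mymx, 14.3 kb upstream: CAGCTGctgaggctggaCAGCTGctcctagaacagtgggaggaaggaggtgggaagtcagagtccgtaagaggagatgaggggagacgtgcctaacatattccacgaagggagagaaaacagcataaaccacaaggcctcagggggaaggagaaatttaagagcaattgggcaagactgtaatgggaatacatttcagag
Cnn2, 1.62 kb downstream: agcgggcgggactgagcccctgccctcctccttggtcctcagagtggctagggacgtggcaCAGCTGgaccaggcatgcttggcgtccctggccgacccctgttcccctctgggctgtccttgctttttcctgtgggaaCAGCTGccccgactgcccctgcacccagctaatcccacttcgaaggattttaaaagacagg

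Of the E-box peaks, 1853 overlapped a peak of the 30-cycle list and 1281 a peak of the 36-cycle list. Peaks of both lists stood behind 915 of them (41.2%, 39.2 to 43.3), against 35.4% of all 22292 combined peaks. Of the rest, 938 (42.3%, 40.2 to 44.3) stood in the 30-cycle list alone and 366 (16.5%, 15 to 18.1) in the 36-cycle list alone. Distal peaks with neither CAGCTG nor AP-1 were found in both lists in 35.7% of 9501 cases, 5.56 points less often than E-box peaks (95% Newcombe interval of the difference 3.31 to 7.84). The share in the 36-cycle list alone was lower in E-box peaks, with a difference of -3.44 points (-5.14 to -1.65). Against distal peaks with the AP-1 sequence alone, 39.8% of which were found in both lists, the difference of 1.43 points had an interval of -1.48 to 4.33. Distal peaks with both sequences reached 44.5%, and here too the interval of the difference included 0 (-7.77 to 1.22).

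Read from the other side, E-box peaks formed 16.9% (15.9 to 17.9) of the distal peaks of both lists, 14.8% (13.9 to 15.7) of distal peaks in the 30-cycle list alone and 13.6% (12.4 to 15) of those in the 36-cycle list alone. Peak width moved with membership in both lists. E-box peaks of both lists had a median combined width of 600 bp, those of the 30-cycle list alone 323 bp and those of the 36-cycle list alone 253 bp. Over all E-box peaks the width had a median of 393 bp and ranged from 195 to 3111 bp, close to the median of 378 bp of peaks with neither sequence. Where both lists had called the peak, it was wider after 30 cycles in 644 of 915 cases, with medians of 511 and 391 bp.

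A combined peak is wider where both lists contribute to it, so width was taken from 1 list at a time, in a comparison added after the data were seen. Of the 1853 E-box peaks of the 30-cycle list, 49.4% were also called after 36 cycles, against 44.6% of the 7607 such peaks with neither sequence. In 5 equally large classes of the width in the 30-cycle list, the shares were 16.4% and 15.7% in the narrowest, 50.5% and 40.6% in the middle class from 348 to 451 bp (difference 9.97 points, 4.37 to 15.5), and 85.4% and 83.9% in the widest. Standardised over these classes the difference was 4.73 points (2.49 to 6.96). Of the E-box peaks of the 36-cycle list, 71.4% were also called after 30 cycles, against 64.1%, and the standardised difference was 6.96 points (4.42 to 9.5). Among all peaks without a repeat-masked base in the central 200 bp, the difference in the share found in both lists was 2.2 points with an interval of -1.32 to 5.77, so that the higher share in both lists was not shown for repeat-free peaks.

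**Figure D1:**
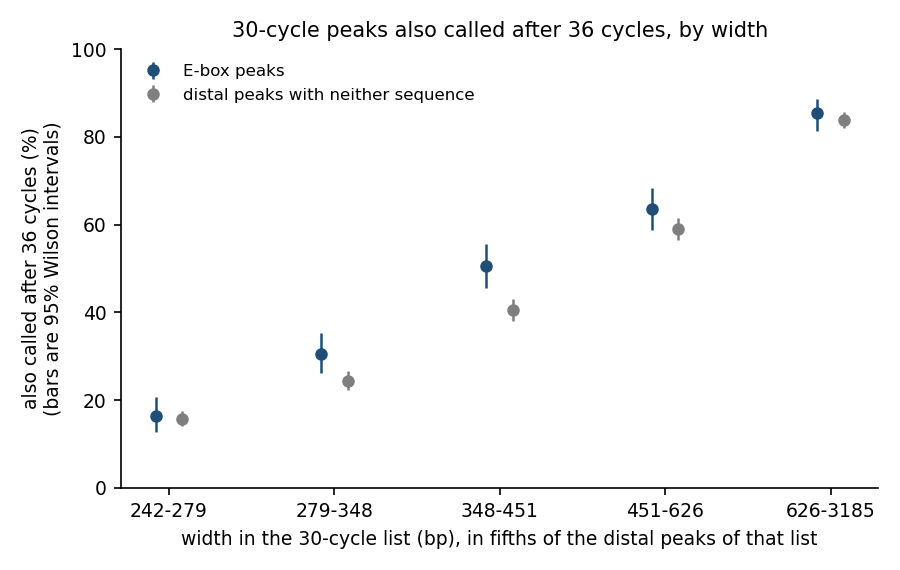
Share of the distal peaks of the 30-cycle list that were also called after 36 cycles (percent, vertical axis) by their width in the 30-cycle list in bp, in 5 equally large classes (horizontal axis), for E-box peaks (blue) and peaks with neither sequence (grey). Points are shares and bars 95% Wilson intervals. The shares rise with width in both groups, from 16.4% to 85.4% in E-box peaks, and stand furthest apart in the middle class.

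To set the E-box peaks against the genome, every autosomal 200 bp window of the same distance band was searched, without overlap between windows. Of these 6604246 windows, 521884 (7.9%) met the same sequence rule, and 0.948% of them had their centre in a WFS1 peak. Among windows with neither sequence 0.423% did so, or 0.549% after standardisation to the GC content of the E-box windows in steps of 5%. The GC-standardised ratio was 1.73 (1.68 to 1.78). Among windows that met the rule, the share under a peak was 0.876% with 1 CAGCTG, 1.81% with 2 and 4.14% with 3 or more. Most CAGCTG sequences of the band thus lay outside the called peaks. Windows with the AP-1 sequence and no CAGCTG were under a peak in 2.18% of cases.

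Repeated E-boxes were more frequent in the peaks than in windows outside peaks that met the same rule. A single CAGCTG was held by 1870 E-box peaks, 2 by 287, 3 by 42 and 4 or more by 20. Together 349 (15.7%) held at least 2, against 7.6% of GC-standardised windows, a ratio of 2.07 (1.88 to 2.28). For exactly 3 sites the ratio was 3.66 (2.7 to 4.96), and for 4 or more it was 4.39 (2.81 to 6.85). The share with at least 2 sites was 16.2% in peaks of both lists, 15.7% in those of the 30-cycle list alone and 14.8% in those of the 36-cycle list alone. Between the sites of the 287 pairs, a distance of 16 to 30 bp from start to start occurred in 20.9% (16.6 to 26), against 16.1% of the window pairs, and every other distance class had an interval that included the window share.

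Some of the repeated sites were tandem arrays. The 12 peaks with 5 or more CAGCTG made up 0.541% of the E-box peaks, against 0.103% of windows (ratio 5.27, 2.96 to 9.4). The peak 23.5 kb upstream of Tulp1 held 15 sites, with 13 steps of 12 bp, and the peak 7.32 kb upstream of Lmod3, which encodes the sarcomere protein leiomodin 3, held 14 at steps of 9 bp. An intronic peak of Fhl2, whose nearest 5' end was that of AI597479, held 11 sites, as did a peak near T2, and an intronic peak of Jade1 held 9 at steps of 17 bp. Of these 5 peaks, 4 were called after 30 cycles only and that of Jade1 in both lists, and none had a repeat-masked base in the window. Their part in the counts of sites was measured by leaving out peaks and windows with 5 or more sites, after which the ratio for at least 2 sites was 2.04 (1.84 to 2.25). The window at Lmod3 (chr6:97259974-97260173) shows such an array.
Lmod3, 7.32 kb upstream: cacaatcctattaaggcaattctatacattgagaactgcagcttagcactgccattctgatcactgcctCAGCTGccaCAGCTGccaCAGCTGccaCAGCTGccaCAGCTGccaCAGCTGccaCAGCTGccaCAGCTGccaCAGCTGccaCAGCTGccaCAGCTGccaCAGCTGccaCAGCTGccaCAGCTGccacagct

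Within the central 200 bp the site had no preferred place. In the peaks with a single site, 24.8% (22.9 to 26.8) of the sites were centred within 25 bp of the peak centre, against 24.9% in windows. In peaks of both lists the share was 26.9% (23.8 to 30.1). Beyond the window used by the rule, CAGCTG was found at 7.21 sites per 100 peak sides in the 50 bp starting 100 bp from the centre and at 2.43 in the 50 bp starting at 950 bp. In peaks with neither sequence, whose central 200 bp the rule kept free of CAGCTG, the same densities were 4.75 and 2.68, so the density fell with distance in both groups.

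The bases beside CAGCTG differed from those of the genome. Shares of flanks, here and below, were not standardised for GC content, so an effect of base composition on them was not tested. Of the 2709 sites in the E-box peaks, 535 (19.7%) read AACAGCTG on at least 1 strand, against 11.3% of the 552253 sites in windows outside peaks, a ratio of 1.74 (1.62 to 1.88). The ratio was 1.84 (1.64 to 2.06) in peaks of both lists, 1.75 (1.56 to 1.97) in those of the 30-cycle list alone and 1.48 (1.2 to 1.83) in those of the 36-cycle list alone, with overlapping intervals. In WFS1 peaks centred within 1 kb of a protein-coding 5' end, 10.3% of 341 sites read AACAGCTG. Their ratio to the same distal windows was 0.906 (0.662 to 1.24), with an interval below that of the distal E-box peaks. Windows within 1 kb of a 5' end were not searched, so whether base composition near 5' ends accounts for this was not tested. In distal peaks with both CAGCTG and AP-1 the ratio was 1.5 (1.27 to 1.77).

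When each side of each site was read with its 2 flanking bases, AACAGCTG had the highest ratio of the 16 possible sequences, followed by CGCAGCTG at 1.55 (1.27 to 1.89), GGCAGCTG at 1.27 (1.17 to 1.39), GACAGCTG at 1.25 (1.14 to 1.38) and AGCAGCTG at 1.24 (1.15 to 1.34). At the low end were ATCAGCTG at 0.469 (0.391 to 0.563), TACAGCTG at 0.487 (0.412 to 0.577) and TTCAGCTG at 0.623 (0.543 to 0.715). A thymine directly before the hexamer thus went with a low ratio in all of its 4 combinations, from 0.469 to 0.779. In windows without a repeat-masked base the ratio was 1.68 (1.48 to 1.89) for AACAGCTG and 0.404 (0.298 to 0.547) for ATCAGCTG, whereas the interval for GGCAGCTG then included 1 (0.942 to 1.22).

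With 2 bases on both sides, reverse complements pooled, AACAGCTGCA led the 136 classes. It occurred at 64 sites of the E-box peaks, and its ratio was 3.07 (2.41 to 3.92). TTCAGCTGAA, which has the thymine on both sides, occurred once where its share of window sites was 0.31%, a ratio of 0.119 (0.0168 to 0.846). Among genomic windows, 2.26% (1.84 to 2.79) of the 3798 with AACAGCTGCA were under a WFS1 peak, against 0.948% of all windows that met the rule. Since this class was picked by its rank in the same peaks, its share of windows is not separate support. The highest share was that of AACAGCTGCG, 3.05% (1.91 to 4.82) of 558 windows.

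Other transcription factor sequences were counted in the same 200 bp and compared with GC-standardised windows that also held CAGCTG and no AP-1 consensus. Of 28 motifs, 10 had an interval above 1, 2 below 1 and 16 across 1. Both strands were searched. RUNX was searched as TGTGGT and as TGCGGT. The letters of TEAD were GGAATG, those of the AP-1 variant with another centre TGAATCA, and those of the cyclic AMP response element TGACGTCA. SP/KLF was searched as GGGCGG, ETS as CCGGAA, MEF3 as TCAGGTT, MEIS as TGACAG and the GATA family as AGATAA. SOX was searched as ACAATG, FOX as TGTTTAC, TCF/LEF as CTTTGAT and as CTTTGAA, STAT as TTCCNGGAA and the nuclear receptor site as AGGTCA. MEF2, the CArG box of serum response factor (SRF), NFI and CTCF were searched by their consensus, and the E-boxes are named by their letters. The last 3 bases of the MEIS letters can be the first 3 of CAGCTG, so the count of MEIS is not free of the rule. Letters that begin with TG, such as those of RUNX and TGAATCA, can likewise share the last 2 bases of CAGCTG. Their ratios to peaks with neither sequence are therefore not free of the rule either.

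RUNX, the motif of the Runt family, stood in 727 E-box peaks (32.8%), against 17.4% of windows, a ratio of 1.89 (1.78 to 2). It was the commonest of the motifs whose interval lay above 1. Distal peaks with neither sequence held RUNX in 29% after GC standardisation, and the ratio to them was 1.13 (1.06 to 1.21). TEAD, the motif of the DNA-binding partners of YAP, stood in 394 peaks (17.8%) against 11.1% of windows, a ratio of 1.59 (1.46 to 1.74). Against peaks with neither sequence its ratio was 1.11, with an interval that began at 0.999. TGAATCA, which differs from the AP-1 consensus that the rule left out only in its centre, stood in 7.39% of E-box peaks and 2.26% of windows, a ratio of 3.27 (2.82 to 3.79). Without repeat-masked bases it was 2.29 (1.75 to 3). Distal peaks with neither sequence held TGAATCA in 5.73% after GC standardisation, and the ratio to them was 1.29 (1.09 to 1.53).

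NFI (1.26% of E-box peaks, ratio 2.04, 1.41 to 2.95), SP/KLF (7.48%, ratio 1.51, 1.3 to 1.75) and ETS (4.06%, ratio 1.46, 1.19 to 1.79) also had intervals above 1, with and without repeats. With the 36-cycle list alone the interval of NFI included 1 (ratio 1.58, 0.918 to 2.72), and SP/KLF had a ratio of 2.35 without GC standardisation. Against peaks with neither sequence all 3 intervals included 1, with ratios of 1.21 (0.782 to 1.87) for NFI, 0.952 (0.806 to 1.12) for SP/KLF and 0.981 (0.779 to 1.24) for ETS. Among the partners of MyoD in muscle, the MADS-box family MEF2 had its motif in 45 peaks (2.03%), a ratio of 1.36 (1.01 to 1.81). This value was 1.55 (0.917 to 2.61) without repeats and 0.853 (0.638 to 1.14) without GC standardisation, so that its direction depended on the background. MEF3, the motif bound by partners of Eya proteins, was as frequent as in windows (3.02% against 3.01%, ratio 1), and the interval of the CArG box of SRF included 1 as well (ratio 1.17). CTCF was found in 4 E-box peaks.

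Among the other E-boxes, CAGATG stood in 19.9% of the peaks, a ratio of 1.2 (1.1 to 1.3), and CAAATG in 12.3%, a ratio of 1.15. Against peaks with neither sequence the intervals of both included 1 (0.989 to 1.2 for CAGATG, 0.957 to 1.23 for CAAATG). Without repeats the interval of CAAATG against windows included 1 as well (0.982 to 1.36). CAGGTG, the other sequence favoured by MyoD, stood in 294 peaks (13.2%) and 17.9% of windows, a ratio of 0.742 (0.667 to 0.826), or 0.78 (0.672 to 0.905) without repeats. Against peaks with neither sequence its ratio was 1.01 (0.891 to 1.14). A change of the last base, CAGCTC, gave 21% against 20.6%, a ratio of 1.02.

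**Figure D2:**
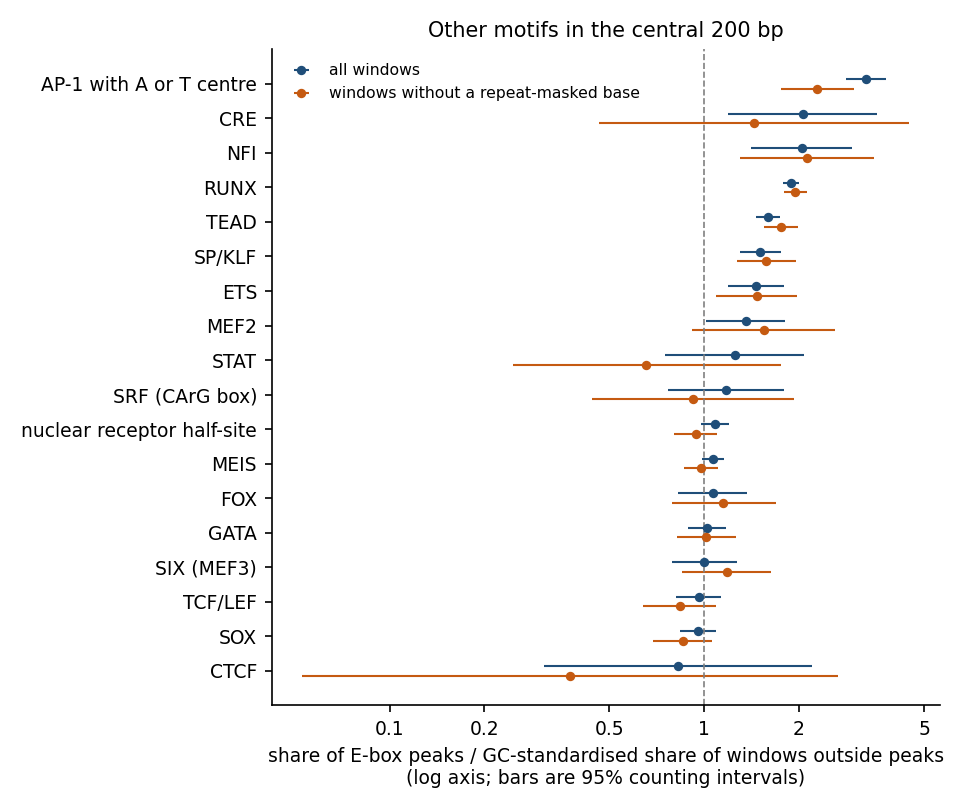
Ratio of the share of E-box peaks that hold a motif in the central 200 bp to the GC-standardised share of windows outside peaks that meet the same sequence rule (log axis), for 18 motifs other than E-boxes and their variant. Points are ratios and bars 95% counting intervals, for all windows (blue) and windows without a repeat-masked base (orange). RUNX at 1.89 and TEAD at 1.59 lie above 1 in both, whereas MEF3 lies at 1 and CTCF, found in 4 peaks, has the widest intervals.

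All hexamers were then ranked in the same way after the CAGCTG sites had been masked. Among the 1965 of 2080 hexamer classes that occurred in at least 1% of windows, ACCGCA had the highest ratio, 2.36 (1.97 to 2.83), in 5.05% of E-box peaks. AACCGC at 2.22 (1.78 to 2.76), AAACCG at 2.09 (1.69 to 2.58), AACCAC at 1.94 (1.79 to 2.12) and ACCACA at 1.93 (1.8 to 2.06) followed. Of these 5, ACCGCA and ACCACA are the reverse complements of the RUNX letters searched above, and AACCGC and AACCAC overlap them by 5 bases. They were also frequent in distal peaks with neither sequence, with ACCACA in 27.6% of E-box peaks and 25.5% of those.

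The 5 lowest hexamers were CAGGTA at 0.327 (0.26 to 0.41), GGTACC at 0.404 (0.275 to 0.592), AGGTAG at 0.42 (0.343 to 0.513), AGGTAC at 0.451 (0.351 to 0.581) and AAGGTA at 0.462 (0.371 to 0.577), and GGTA is contained in all 5 of them. The lowest, CAGGTA, differs by its last base from the E-box CAGGTG and is a sequence to which ZEB repressors bind. It stood in 72 E-box peaks (3.24%, 2.58 to 4.07), in 9.94% of windows and in 5.41% of distal peaks with neither sequence. The share was 2.95% (2.04 to 4.26) in peaks of both lists, 3.3% (2.34 to 4.65) in those of the 30-cycle list alone and 3.83% (2.29 to 6.32) in those of the 36-cycle list alone. Without repeat-masked bases the ratio of CAGGTA was 0.266.

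The density of these sequences changed with distance from the peak centre in opposite directions. RUNX fell from 11.4 sites per 100 peak sides in the innermost 50 bp to 4.84 at 250 to 300 bp and 4.6 at 950 to 1000 bp. TEAD lay at 4.93 in the innermost 50 bp and at 2.61 at 250 to 300 bp. Peaks with neither sequence showed the same direction, with RUNX at 10.7, 6.03 and 4.74 and TEAD at 4.73 and 3.4 at these distances. CAGGTA was at its lowest in the innermost 50 bp, with 0.699 sites per 100 peak sides, and reached 2.77 at 450 to 500 bp. In peaks with neither sequence it lay at 1.58 in the innermost 50 bp and at 2.18 at 450 to 500 bp. The profile of CAGGTA was drawn after its ratio was seen.

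**Figure D3:**
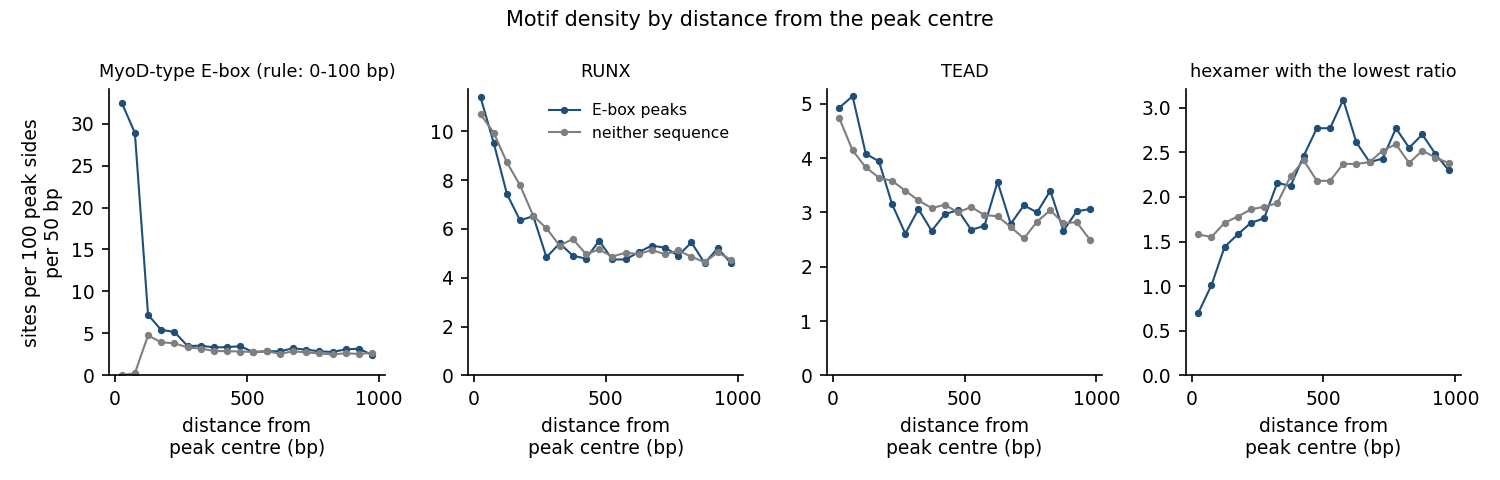
Sites per 100 peak sides in steps of 50 bp (vertical axes, each panel with its own scale from 0) by distance from the peak centre in bp (horizontal axes), for E-box peaks (blue) and distal peaks with neither sequence (grey). The panels show the MyoD-type E-box, which the rule required in E-box peaks within 100 bp and forbade in the grey group, RUNX, TEAD and CAGGTA, the hexamer with the lowest ratio. RUNX is densest at the centre, at 11.4, and CAGGTA is rarest there, at 0.699.

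By position, 1189 of the 2219 E-box peaks (53.6%, 51.5 to 55.6) were centred in an intron, 8.74% in an exon and 836 (37.7%) between genes. Peaks with neither sequence lay in introns in 51.1%, a difference of 2.5 points (0.195 to 4.8), and between genes in 40.6%. The interval of the intron difference included 0 with 1 peak per 50 kb (-1.31 to 5.07), with the 36-cycle list alone (-0.572 to 5.36) and with the start sites of all genes (-0.133 to 4.11). Against peaks with AP-1 alone, E-box peaks lay more often in exons, by 3.38 points (1.87 to 4.9), and at 1 to 5 kb from a 5' end, by 4.64 points (2.65 to 6.63). Against peaks with neither sequence these differences were 0.386 points (-0.859 to 1.75) and -1.7 points (-3.33 to 0.0292). The median distance to the nearest 5' end was 24.5 kb, and 944 peaks (42.5%) lay upstream of it. The peaks nearest to the limits of the rule were centred 1004 bp and 99825 bp from a 5' end, and the nearest outside them 996 bp and 100137 bp. A further 285 peaks with CAGCTG and no AP-1 lay nearer than 1 kb and 646 farther than 100 kb.

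Another WFS1 peak was centred within 10 kb of 1272 E-box peaks (57.3%), against 59.3% of peaks with neither sequence, and the interval of the difference included 0 (-4.31 to 0.253). It was -3.42 points (-5.7 to -1.11) for neighbours within 5 kb and -4.18 points (-7.15 to -1.21) with the 36-cycle list alone, but 0.424 points (-1.19 to 1.94) within 50 kb. The E-box peaks differed from the genome in repeats, since 43.4% of them but 32.7% of the windows that met the rule held no repeat-masked base in the 200 bp. Peaks with neither sequence were repeat-free in 33.1%, a difference of 10.3 points (8 to 12.5), and peaks with AP-1 alone in 41.7%. Over all autosomes, E-box peaks formed from 10.8% (8.2 to 14) of the distal peaks on chromosome 16 to 19.9% (16.8 to 23.4) on chromosome 12. Per megabase they ranged from 0.479 on chromosome 16 to 1.56 on chromosome 11, which also had the most distal peaks per megabase (9.58).

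The nearest protein-coding gene was recorded for each E-box peak, which says nothing on which gene a peak acts on. The 2219 peaks had 1771 nearest genes, 8.51% of the 20807 autosomal protein-coding genes. Of 54 myogenic regulators, 23 (42.6%, 30.3 to 55.8) were the nearest gene of at least 1 E-box peak. So were 18 of 46 genes of the extracellular matrix and growth factor signalling (39.1%, 26.4 to 53.5) and 17 of 46 genes of the actin cytoskeleton and adhesion (37%, 24.5 to 51.4). Genes of the sarcomere and triad (9 of 58, 15.5%, 8.38 to 26.9), of the muscle membrane and synapse (6 of 35, 17.1%, 8.1 to 32.7) and of the cell cycle (6 of 40, 15%, 7.06 to 29.1) lay closer to the background. This order rested on the nearest-gene rule, since 18 of the 58 sarcomere genes (31%) and 11 of the 40 cell cycle genes (27.5%) had an E-box peak within 50 kb, against 13.6% of all genes. With the 30-cycle list alone, 3 of the 35 genes of the muscle membrane and synapse (8.57%) were nearest to one, against 7.48% of all genes. With the 36-cycle list alone it was 7 of the 35 (20%), against 5.45% of all genes. For comparison, 2 of 49 neuronal synapse genes (4.08%) and 3 of 40 hepatocyte genes (7.5%) were nearest to an E-box peak. Within 50 kb, however, 11 of the 40 hepatocyte genes (27.5%) had one, the same share as the cell cycle list, and 5 of the 49 neuronal genes (10.2%). Distal peaks with neither sequence had 35 of the 54 myogenic regulators (64.8%) as their nearest gene, against 23.4% of all genes. Their shares were 80.4% for the matrix and growth factors, 69.6% for the actin cytoskeleton, 51.4% for the muscle membrane and 40% for the cell cycle. For the sarcomere it was 25.9%, for neuronal genes 20.4% and for hepatocyte genes 12.5%. High shares of these lists were thus not particular to E-box peaks.

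Since genes in wide intergenic space are nearest to more sequence, the share of E-box windows under a peak was also taken for each list. It was 2.7% (2.14 to 3.4) of the 2555 windows nearest to myogenic regulators, 3.4% (2.61 to 4.4) for the actin cytoskeleton, 3.18% (2.55 to 3.96) for the matrix and growth factors and 2.41% (1.65 to 3.51) for the cell cycle, against 0.948% over all genes. For the sarcomere and triad it was 1.67% (1.14 to 2.43) and for the muscle membrane and synapse 1.91% (1.3 to 2.81). For neuronal synapse genes it was 0.248% (0.106 to 0.58) and for hepatocyte genes 0.29% (0.0987 to 0.85). Windows with neither sequence were not counted by list, so whether these shares are particular to E-box windows was not tested.

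**Figure D4:**
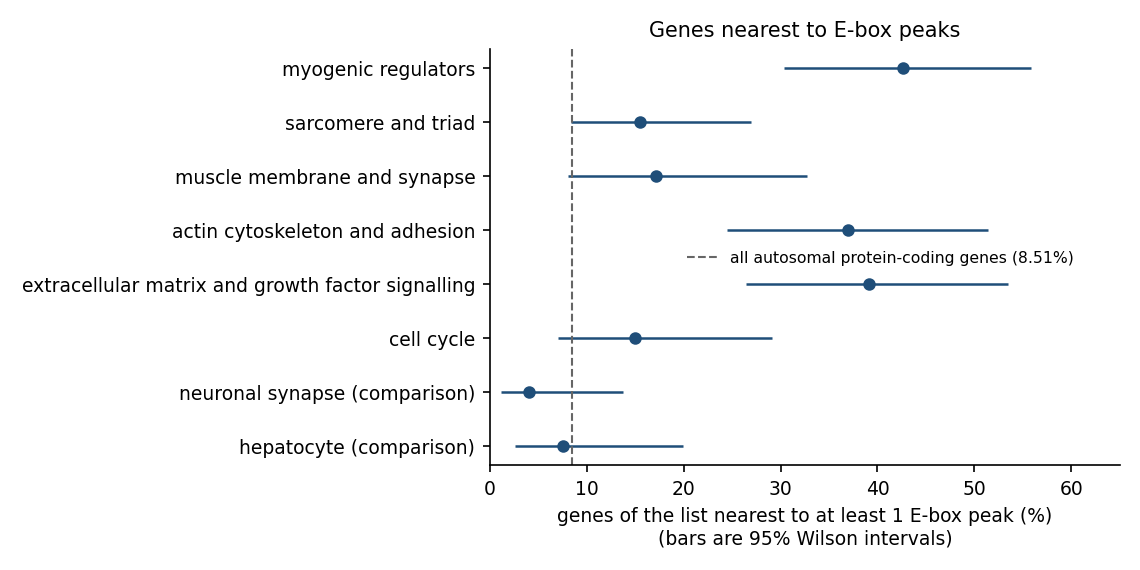
Share of the genes of each list that were the nearest protein-coding gene of at least 1 E-box peak (percent, horizontal axis). Points are shares, bars 95% Wilson intervals, and the dashed line marks the 8.51% of all autosomal protein-coding genes. Myogenic regulators (42.6%), matrix and growth factor genes (39.1%) and actin cytoskeleton genes (37%) lie furthest to the right, the neuronal list (4.08%) to the left of the line.

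The 23 myogenic regulators had 28 E-box peaks, 14 of them in both lists, 8 in the 30-cycle list alone and 6 in the 36-cycle list alone. Over all E-box peaks these shares were 41.2%, 42.3% and 16.5%. The E-boxes of the regulators are shown with 10 bases to either side for most of the genes not shown above. Their flanks can be set against AACAGCTG and the low sequences with a thymine. The 20 of these peaks nearest to a 5' end, up to 46 kb away, include those shown.
Id1, chr2:152737462-152737487: gccattttcaCAGCTGgtgttgagaa
Id3, chr4:136120348-136120373: aactggccacCAGCTGttccagtgcc
Tcf12, chr9:72133055-72133080: gctgcagcctCAGCTGcggctttccg
Hes1, chr16:30066106-30066131: aactcggaggCAGCTGacaaggagga
Hes1, chr16:30110341-30110366: agaacaaaggCAGCTGcactaatgag
Hey1, chr3:8698506-8698531: accgccctcaCAGCTGtcacagcctc
Msc, chr1:14775257-14775282: atactgtttaCAGCTGtgtctcacgt
Msc, chr1:14801550-14801575: ttgtaaattaCAGCTGgagagtttat
Bhlhe41, chr6:145872137-145872162: caactcgcagCAGCTGttgtggcctc
Snai1, chr2:167543079-167543104: ctgcccctccCAGCTGaagggaggat
Zeb2, chr2:45112066-45112091: gttttcttccCAGCTGttgcgacccc
Srf, chr17:46553266-46553291: agcggggagaCAGCTGgcgggaggaa
Mef2d, chr3:88138808-88138833: cacccaactgCAGCTGccaccacatc
Eya1, chr1:14304911-14304936: ctgctctagcCAGCTGaactagagcg
Runx1, chr16:92782641-92782666: gtagctcatcCAGCTGtgaccacaaa

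MyoD and its partners came first. The peak 34.9 kb upstream of Myod1 was called after 30 cycles with 586 bp and after 36 cycles with 425 bp, and the peak 23.3 kb upstream after 30 cycles only, with 333 bp. Their sites read AGCAGCTGTT and AGCAGCTGGT, and the former is AACAGCTG on the other strand. Tcf12, which encodes an E protein that pairs with MyoD, had a peak 21.3 kb upstream in both lists (267 and 367 bp). No E-box peak had Myf5, Myf6 or Myog, the other genes of the MyoD family, as its nearest gene. This covers only E-box peaks and the nearest-gene rule. In the paper, predicted enhancers of Myf5 carried WFS1 peaks.

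Inhibitors and repressors of the bHLH network came next. Id1 had a peak 1.27 kb downstream of its 5' end, called after 36 cycles only with 204 bp, and Id3 had a peak 23.1 kb upstream, called after 30 cycles only with 471 bp. Hes1, a Notch target, had 3 E-box peaks, all in both lists and at 1.8 to 54.6 kb, the nearest in its own exon. Hey1, a related Notch target, had 2 such peaks at 31.2 and 50.2 kb. The peak of Heyl was 655 bp wide after 30 cycles and 521 bp after 36. Msc, encoding the bHLH repressor musculin, had a peak 19.3 kb upstream that was wider after 36 cycles (1477 bp) than after 30 (757 bp). Its other peak, 45.5 kb away, stood in the 36-cycle list alone, and the sites of both read TACAGCTG, among the sequences with low ratios. Bhlhe41, another bHLH repressor, had a peak 6.61 kb upstream in both lists. Peaks near the zinc finger repressors Snai1 (4.94 kb) and Zeb2 (5.22 kb) were called after 36 cycles only.

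Among cofactors and other regulators, Srf (2.96 kb downstream, in an intron) and Mef2d (3.47 kb upstream) had peaks called after 30 cycles only, with 285 and 328 bp. Eya1, which encodes a transcriptional coactivator of muscle precursors, had an intronic peak of 284 bp after 30 and 553 bp after 36 cycles. Runx1, a member of the Runt family, had an intronic peak at 43.6 kb in both lists. Mymx had 1 distal peak in all, the E-box peak shown above, called after 30 cycles only with 472 bp. Of the 37 sites in the 28 peaks of myogenic regulators, 6 (16.2%, 7.65 to 31.1) read AACAGCTG on either strand, a share whose interval includes both the 19.7% of all E-box peaks and the 11.3% of windows. Among the 20 nearest peaks these were 4 of 24 sites, found in the peaks of Myod1 at 34.9 kb, Id3, Bhlhe41 and Zeb2.

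Among the genes with most E-box peaks were Jdp2, Mtss1 and Slc6a6 with 5 each, while 1428 genes had 1, 263 had 2, 59 had 3 and 17 had 4. The genes named here were picked by this number, so the shares of their distal peaks are not separate from the choice. Over all distal peaks, 15.3% were E-box peaks. Jdp2 encodes a bZIP protein that dimerises with AP-1 proteins, and 5 of its 7 distal peaks were E-box peaks, 3 of them in both lists. For Mtss1, which encodes an actin and membrane binding protein, 5 of 20 distal peaks qualified, 4 of them in both lists. For Slc6a6, the taurine transporter, 5 of 10 qualified, 1 of them in both lists. Next by name among those with 4 were 1700001O22Rik, AI597479, Cdk5r1, Flnc, Gse1 and Ier5. All 4 distal peaks of Flnc, which encodes the muscle filamin C, were E-box peaks, within 1.64 to 6.18 kb of its 5' end, yet none was called in both lists.

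Of the actin cytoskeleton list, the E-box peak of Cnn2 lay nearest to a 5' end, at 1.62 kb, in both lists (498 and 434 bp). The right-hand site of the printed sequence read AACAGCTGCC. Myh9, encoding a nonmuscle myosin heavy chain, had 4 E-box peaks, 3 of them in both lists, and Actb had 1, at 3.37 kb, called after 30 cycles only. Of the matrix and growth factor list, the peak of Igf1r, the receptor of insulin-like growth factor 1, lay 1.96 kb upstream, with 823 bp after 30 and 267 bp after 36 cycles and 2 sites. Smad3, a signal transducer of TGF-beta, had 4 E-box peaks, all in both lists, at 15.3 to 45.3 kb. Notch3 had 4, of which 2 were in both lists, and Notch1 had 2, both in both lists. Igf1 itself had 2, called after 30 cycles only.

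Of the sarcomere and triad list, Bin1, which shapes the transverse tubules, had 3 E-box peaks, the nearest in an intron 1.16 kb downstream of its 5' end and 267 and 360 bp wide in the lists. Tpm1, encoding tropomyosin, and Ankrd1 were among the others, with 1 and 2 E-box peaks, while the peaks of Nebl and Jph2 (2 each) were called after 30 cycles only. Of the muscle membrane and synapse list, the nearest was an intronic peak of the adhesion gene Ncam1 at 1.02 kb, called after 36 cycles only. Of the cell cycle list, the nearest was an intronic peak of E2f2 at 2.13 kb, also called after 36 cycles only. For the lists of other tissues the nearest were peaks of Camk2a (3.27 kb) and Ahsg (10.3 kb), both called after 30 cycles only.

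The 5 widest E-box peaks of both lists were 2131 to 3111 bp wide. The widest, 3111 bp (chr19:5838213-5841323), was centred in an exon of the noncoding RNA Neat1, with Frmd8 as the nearest protein-coding gene, and its single site read AACAGCTGAA. The others lay between genes 37.3 kb upstream of Dap (2824 bp), in introns of Kansl2 (2682 bp) and Zfp568 (2232 bp), and 64.1 kb upstream of Slc6a6 (2131 bp). At Neat1 the list widths were alike, 2715 bp after 30 and 2589 bp after 36 cycles, whereas at Dap they were 1097 and 2824 bp.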

How the data were processed

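Peaks of the WFS1 ChIP in wildtype cells were taken from the lists deposited for the 30-cycle and the 36-cycle library. The values are positions, and the deposited files hold no count, signal, score, fold or p-value. According to Methods, the authors aligned single-end reads to GRCm38 (mm10) using NextGenMap. Poorly mapped reads were filtered out by SAMtools, and MACS2 was run on each library by itself. The control used in calling is not given in the sources used here. Filtering by mapping quality can remove reads from sequence that occurs more than once, so repeats can be under-represented.

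The lists were joined by overlap or contact, as bedtools merge does, and a combined peak was counted in a list at an overlap of at least 1 bp. Sequences came from the RefSeq copy of GRCm38.p6, with its soft-masked repeats, and genes from GENCODE mouse release 21, an earlier release than the authors used. CAGCTG and 28 further motifs were searched on both strands of the central 200 bp. The background was every non-overlapping autosomal window of 200 bp centred 1 to 100 kb from a protein-coding 5' end, with shares standardised to the peaks in GC steps of 5%. The bases beside CAGCTG and the spacing of sites were compared without this standardisation. It was also not applied to shares of windows under a peak by number of sites, by kind of site or by gene list. For motifs, sites and hexamers it was the 515469 of these windows that met the sequence rule and touched no peak. Shares have 95% Wilson intervals, differences Newcombe intervals and ratios intervals on the log scale. With 1 library per condition no test was made and no p-value is given.

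The set, the gene lists and the motifs were chosen with earlier results of these data known. Named by rule were the 20 E-box peaks of myogenic regulators nearest to a 5' end, the 5 widest peaks of both lists, the 5 with most CAGCTG, the nearest peak of every other gene list, the 10 genes with most peaks, and the 5 highest and 5 lowest hexamers, of which some items are not reported here. Other gene list members, the profile of CAGGTA and the flanks near the myogenic regulators were named after their values were seen. Scripts were tested on simulated sequences with planted motifs. Tools were python 3.11.15, numpy 2.4.6, pandas 2.3.3 and matplotlib 3.10.9.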

Additional observations from a re-analysis of the deposited data

How the results depend on the processing

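No paired analysis was possible because the comparisons rest on single libraries without a test. Directions held under every alternative run for the share of windows under a peak, the flank AACAGCTG, repeated sites, introns and the share in both lists, although the interval of the intron difference included 0 under 3 of 4. MEF2 turned to 0.853 without GC standardisation. The set itself held 1352 peaks from the 36-cycle list alone and 1342 with a central 100 bp. The difference in the share found in both lists was 2.2 points without repeats. The ratio of windows under a peak was 2.24 without GC standardisation, 1.78 with the 30-cycle and 1.85 with the 36-cycle list alone, 1.58 without repeats and 1.66 within 50 kb. AACAGCTG had a ratio of 1.93 against windows 2 kb to either side of the peaks, and a second CAGCTG one of 2.46 without GC standardisation and 2.37 with the 36-cycle list alone. With neighbours up to 50 kb away the difference in neighbouring peaks was 0.424 points in place of -2.02. Counting any E-box peak within 50 kb of a 5' end, 20 of 54 myogenic regulators had one (37%), against 13.6% of all genes, but so did 11 of 40 hepatocyte genes (27.5%), so the distance between that list and the muscle lists depended on the nearest-gene rule. Of the 114 values under alternatives, 87 moved less than their interval or 1.5 times and 26 moved further, one of which, the difference in neighbouring peaks, changed sign, and that of MEF2 reversed. The unknown read depth limits how far a peak missing from a list can be read as absent.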
